A study of Mus musculus with 24 samples.

Results

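The liver RNA of mice that carried the AKT and NRas oncogene plasmids was compared between animals injected with thioacetamide (TAA) and animals injected with saline. The members were all livers titled SB/AKT/NRas + TAA (n = 5) and SB/AKT/NRas + saline (n = 4), which are 9 of the 24 livers in the series, and all 19381 genes that passed the filter on low counts were tested. All 9 were male C57BL/6JAusb mice, each giving 1 library of whole liver, 14 to 15 weeks old when the plasmids were injected. Every mouse received 0.8 µg of the Sleeping Beauty (SB) transposase plasmid, driven by the CMV promoter, together with 10 µg each of a transposon carrying myristoylated AKT and a transposon carrying human NRasV12 under the CAGGS promoter. The groups differed in what was injected into the peritoneum: saline, or TAA at 100 mg/kg for the first dose and 200 mg/kg afterwards. Those injections started on day 8 to 10 and numbered 10 to 11 over 5 to 6 weeks. The other livers used for comparison carried the SB plasmid alone (4 with saline and 4 with TAA) or SB with AKT and c-Met (3 with saline and 4 with TAA).

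Hydrodynamic tail vein injection forces plasmid into the liver, where the transposase inserts the oncogenes into the genome of only some hepatocytes, so that each mouse starts from its own set of insertions and the tissue sampled can hold normal parenchyma, foci and nodules in unequal amounts. TAA is a hepatotoxin that is turned into reactive metabolites by Cyp2e1 and related enzymes, which hepatocytes around the central vein hold most of. Hepatocytes are zoned: those at the central (perivenous) end make glutamine and run most drug metabolism, and those at the portal end make urea and break down amino acids. In whole-liver RNA a fall in a gene can come from fewer cells of the type that expresses it or from less RNA per cell, and the 2 cannot be told apart.

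The labels were checked first. Human NRAS, counted on its own transcript, was measured at 12.3, 55.3, 218 and 66.1 CPM (counts scaled to equal library size) in saline replicates 1 to 4 and at 34, 47.7, 18.5, 17.9 and 75.7 CPM in TAA replicates 1 to 5. It was present in every liver of both groups, was lowest in saline replicate 1 (28 counts) and highest in saline replicate 3 (768 counts), and the groups overlapped. The log2 fold change of TAA over saline was -1.18 ± 0.47 (SE; edgeR quasi-likelihood test, adjusted p = 0.489). It was -1.55 without saline replicate 1 and -0.21 without saline replicate 3, values given with no test because these livers were singled out by their human NRAS counts, so that leaving out the lowest must enlarge the fall and leaving out the highest must lessen it. A two-sided exact permutation test of the mean CPM gave p = 0.278 over 126 arrangements (smallest possible 0.00794). Mouse Nras lay between 42 and 59.1 CPM with saline and between 44.7 and 62.2 CPM with TAA, and human MET, the transgene of the other oncogene model, had a count of 0 in all 9 livers. SB livers, which lack the oncogenes, held at most 1.14 CPM of human NRAS.

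The 9 libraries held 2480622 to 3399247 molecule counts each on 16403 to 18707 genes. Saline replicate 1 stood apart: it had the fewest genes with a count (16403), the lowest share of reads assigned to genes (13.75%, against 17.74% to 23.94% in the others) and the lowest TMM scaling factor, and its nearest liver among all 24 was SB + saline replicate 3. Each of the 5 TAA livers had another TAA liver of the same group as its nearest neighbor. Saline replicates 2 and 3 were nearest to TAA replicates 2 and 5, and saline replicate 4 to saline replicate 2. The mean distances of saline replicates 1 to 4 were 2.74, 1.99, 2.5 and 2.14 to the TAA livers. To the other saline livers they were larger, at 3.01, 2.22, 2.7 and 2.32. Because saline replicate 1 stood apart, counts of called genes and the values of called genes are also given without it. The 12 defining hepatocyte transcripts, such as albumin, summed to 66868 to 103929 CPM with saline and 70485 to 94895 CPM with TAA, so the label of liver tissue held in all 9. None of the 12 passed the edgeR test, where 1 was higher and 3 were lower at an unadjusted p under 0.05, and DESeq2 called 1 in each direction.

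Few genes passed the test of TAA against saline in livers that carried AKT and NRas. With an adjusted p under 0.05 and an absolute log2 fold change over 1, 31 genes were called, 21 higher and 10 lower with TAA, which is 0.16% of the genes tested. On adjusted p alone 24 genes were higher (0.124%) and 10 lower (0.0516%), and 1677 genes had an unadjusted p under 0.05 (807 higher and 870 lower). The levels of the 2 groups did not overlap in any liver for 20 of the 21 genes that rose and 6 of the 10 that fell, where over all genes 1.74% did not overlap with TAA higher and 1.04% with TAA lower. The called changes ran from 1.10 to 5.50 in absolute log2 units, and the median over all genes was -0.02. Without saline replicate 1, 2257 genes had an unadjusted p under 0.05 (1085 higher and 1172 lower), and 69 genes were called (0.356%), 36 higher and 33 lower. With libraries scaled by size alone that split was 20 higher and 35 lower, under a median of -0.15 over all genes. The lists of 31 and 69 shared 26 genes, which is 26 of 31 and 26 of 69.

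The called gene with the largest fall was Slc1a2, and it fell together with Glul, which acts on the same amino acids in the same hepatocytes. Slc1a2 (chr2:102658659-102790784), the transporter by which perivenous hepatocytes take up glutamate, stood at 90.1, 87.3, 10.5 and 74.5 CPM in saline replicates 1 to 4 and at 1, 0.947, 0.941, 0.688 and 3.01 CPM in TAA replicates 1 to 5. Glul (chr1:153899944-153909723), glutamine synthetase, stood at 607, 489, 127 and 459 CPM with saline and at 101, 94.7, 85, 91.8 and 79.4 CPM with TAA. In both genes every TAA liver was below every saline liver, and saline replicate 3, the liver with most human NRAS, was by far the lowest of the saline group. Slc1a2 fell by 5.50 ± 0.50 log2 units (SE; adjusted p = 1.87e-07) and Glul by 2.22 ± 0.27 (adjusted p = 6.75e-05), and without saline replicate 1 the changes were -5.32 (adjusted p = 5.28e-07) and -2.00 (adjusted p = 3.60e-04).

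No other perivenous gene passed in edgeR. Of 24 perivenous genes tested, the 2 that passed the test were Slc1a2 and Glul, where 0.0516% of all genes fell. The median change of the list was 0.05 against -0.02 over all genes. At an unadjusted p under 0.05, 4 were lower and 2 higher, DESeq2 gave 3 that fell and 1 that rose, and limma-voom 2 that fell. With human NRAS as a covariate 4 fell and 1 rose in edgeR. Cyp2e1, the enzyme that activates TAA, stood at 1526, 960, 238 and 686 CPM with saline and at 604, 618, 455, 588 and 447 CPM with TAA. The TAA livers were close to each other and inside the wide saline range, and the change of -0.65 ± 0.34 did not pass the test (adjusted p = 0.61, and -0.22 with adjusted p = 0.869 without saline replicate 1). In SB livers without oncogenes the same 24 genes included 10 that fell and 2 that rose with TAA (over all genes 2.51% fell and 3.48% rose on adjusted p), with a median of -0.87.

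**Figure D1:**
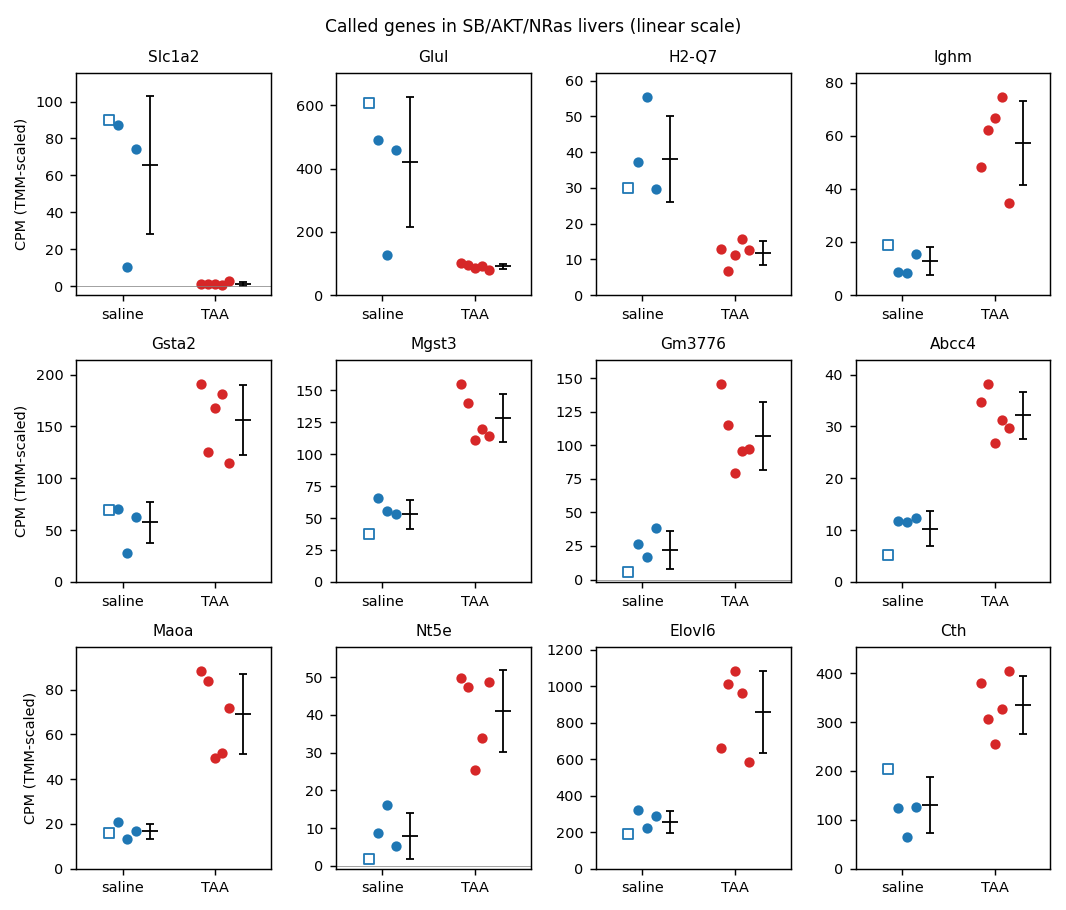
Levels of 12 genes called between the TAA and saline groups, in CPM on linear axes that include 0. Each point is 1 liver, replicates in order from left to right, the open square is saline replicate 1, and the black bars give mean ± SD; Slc1a2, Glul and H2-Q7 are lower in every TAA liver than in any saline liver, and the other 9 genes are higher in every TAA liver.

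Several genes that conjugate and export reactive compounds rose. Glutathione S-transferases couple glutathione to electrophiles, and many of them, with the exporters that remove the conjugates and the enzymes that renew NADPH, are targets of the transcription factor NRF2. Gsta2 stood at 69.5, 69.9, 27.8 and 62.2 CPM with saline and 191, 125, 168, 181 and 115 CPM with TAA. Mgst3, a microsomal member of the transferase superfamily, stood at 37.4, 65.4, 55.4 and 53.4 CPM with saline and 155, 140, 111, 120 and 114 CPM with TAA. Every TAA liver was above every saline liver in both, and the rises were 1.45 ± 0.25 (adjusted p = 0.00741) and 1.27 ± 0.23 (adjusted p = 0.00934), or 1.54 and 1.13 without saline replicate 1 (adjusted p = 0.0068 and 0.0264).

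Gm3776, an alpha-class transferase gene close to Gsta2 on chromosome 9, stood at 5.28, 26.8, 16.8 and 38.7 CPM with saline and at 146, 115, 79.3, 95.6 and 97.5 CPM with TAA, a rise of 2.27 ± 0.46 (adjusted p = 0.0241). The alpha-class genes are near copies of each other and reads with a mapping quality under 10 had been left out of the counts, so the split of reads between Gsta2 and Gm3776 is uncertain. Abcc4, a transporter that exports conjugates and bile acids to the blood side of the hepatocyte, stood at 5.28, 11.8, 11.6 and 12.4 CPM with saline and 34.7, 38.2, 26.7, 31.3 and 29.6 CPM with TAA. It was higher in all 5 TAA livers, by 1.61 ± 0.30 (adjusted p = 0.0126). Tkt, transketolase of the pentose phosphate pathway, rose by 0.96 ± 0.16 (adjusted p = 0.00674), from 82.7 to 153 CPM with saline to 205 to 289 CPM with TAA, and so passed the adjusted p but not the fold threshold. Without saline replicate 1 the rises of Gm3776, Abcc4 and Tkt were 1.95, 1.41 and 0.80 (adjusted p = 0.0442, 0.0294 and 0.0106).

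Of the 40 genes of the NRF2, glutathione and NADPH list, 20 were higher and none lower at an unadjusted p under 0.05, and DESeq2 gave 7 and limma-voom 5 that rose. In edgeR 4 rose (Gsta2, Mgst3, Abcc4 and Tkt) and none fell, where 0.124% of all genes rose and 0.0516% fell. A change above 0 was found in 36, with a median of 0.44. Gm3776 is not in that list. The same counts of 4 and 0 were found without saline replicate 1 (0.253% of all genes rose and 0.175% fell there), with a median of 0.45. The classical members Nqo1, a quinone reductase, and Gclc, the catalytic subunit of glutamate-cysteine ligase, had changes of 0.69 ± 0.29 (adjusted p = 0.514) and 0.17 ± 0.20 (adjusted p = 0.872), or 0.46 and 0.07 without saline replicate 1. In SB livers, where 3.48% of all genes rose, 11 of the 40 rose with TAA and none fell, with a median of 0.35.

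The promoters of 7 genes that rose (Abcc4, Gsta2, Gm3776, Mgst3, Tkt, Maoa and Nt5e) were searched, on both strands, for the letters TGACNNNGC, the core of the antioxidant response element to which NRF2 binds. Of all 32851 RefSeq promoter windows of 250 bases before a start, 3338 (10.2%) held a match. A match was found for Abcc4, once in each of its 2 annotated start windows, and none in the windows of the other 6 genes. The 100 bases before each Abcc4 start are shown because they are the windows with a match, printed 5′ to 3′ on the gene's minus strand (RefSeq, GRCm38.p6), with the matching letters in capitals.
Abcc4, chr14:118706220-118706319: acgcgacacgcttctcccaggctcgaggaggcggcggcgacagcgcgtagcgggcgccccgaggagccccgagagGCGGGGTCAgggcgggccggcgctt
Abcc4, chr14:118676932-118677031: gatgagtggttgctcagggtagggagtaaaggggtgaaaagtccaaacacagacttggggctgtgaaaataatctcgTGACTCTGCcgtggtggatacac
The matches start 25 and 23 bases before the start sites. They describe these letters and no binding was measured.

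Among drug-metabolizing cytochrome P450 enzymes, members of the Cyp2a family rose. Cyp2a4 stood at 8.79, 124, 90.9 and 92.1 CPM with saline and 453, 478, 415, 446 and 334 CPM with TAA, and Cyp2a22 at 1.76, 4.87, 6.82 and 6.83 against 29.4, 20.5, 16.3, 24.1 and 13.8 CPM. Neither gene's groups overlapped, and saline replicate 1 was the lowest liver in both. The rises were 2.42 ± 0.51 (adjusted p = 0.0314) and 1.98 ± 0.39 (adjusted p = 0.019), and 2.04 and 1.72 without saline replicate 1. Both belong to a family of near-identical genes, so their separate levels are uncertain. They were the only 2 of 42 P450 genes tested that passed in edgeR, where 0.124% of all genes rose and 0.0516% fell, while DESeq2 gave 5 that rose and 1 that fell. In edgeR 3 rose without saline replicate 1, where 0.253% of all genes rose. In SB livers given TAA, where 3.48% of all genes rose and 2.51% fell, 4 of the 42 rose and 12 fell. Cyp1a1, which is induced by ligands of the aryl hydrocarbon receptor, was at 0.879, 0, 0 and 0 CPM with saline and 4.67, 2.52, 4.08, 4.13 and 1.75 CPM with TAA, a difference that passed the test without saline replicate 1 (adjusted p = 0.0346) and not with it (adjusted p = 0.0892).

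Maoa and Nt5e, enzymes that break down amines and extracellular nucleotides, rose as well. Maoa (chrX:16619698-16687818), the mitochondrial monoamine oxidase A, stood at 15.8, 20.9, 13.1 and 16.9 CPM with saline and 88.4, 83.6, 49.5, 51.6 and 71.7 CPM with TAA, a rise of 2.05 ± 0.32 (adjusted p = 0.00274). Nt5e (chr9:88327197-88372092), the surface enzyme CD73 that turns extracellular AMP into adenosine, stood at 1.76, 8.7, 16.2 and 5.21 CPM with saline and 49.7, 47.3, 25.4, 34 and 48.6 CPM with TAA, a rise of 2.30 ± 0.37 (adjusted p = 0.00396). The lowest TAA liver was above the highest saline liver in both, and the changes without saline replicate 1 were 2.02 and 2.00 (adjusted p = 0.00637 for each). These were the 2 of 31 genes of the monoamine and nucleotide breakdown list that passed the test, where 0.124% of all genes rose. The median of that list was 0.14.

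Cth, Got1 and Elovl6, enzymes of sulfur amino acid, aspartate and fatty acid metabolism, also rose. Cth, cystathionine gamma-lyase, which makes cysteine for glutathione, stood at 204, 125, 65.1 and 126 CPM with saline and 380, 307, 255, 327 and 405 CPM with TAA (1.37 ± 0.27, adjusted p = 0.0209). Got1, the cytosolic aspartate aminotransferase, stood at 53.6, 41.8, 39.8 and 70.9 against 116, 126, 129, 105 and 152 CPM (1.29 ± 0.27, adjusted p = 0.0314). Elovl6, which elongates long-chain fatty acids, stood at 190, 322, 221 and 290 against 660, 1012, 1084, 961 and 582 CPM (1.75 ± 0.31, adjusted p = 0.00741). In none of the 3 did a TAA liver reach down to the saline range, and without saline replicate 1 the rises were 1.66, 1.29 and 1.62 (adjusted p = 0.0044, 0.0446 and 0.0176). Elovl6 was the 1 gene of 29 in the fatty acid and triglyceride synthesis list to pass, where 0.124% of all genes rose. Fasn, fatty acid synthase, had 186, 299, 233 and 270 CPM against 403, 523, 533, 429 and 337 CPM, which did not pass the test (0.85 ± 0.28, adjusted p = 0.337) although the groups did not overlap.

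Immune and secreted proteins moved in both directions. Ighm (chr12:113418558-113422730), the constant region of the IgM heavy chain, stood at 18.9, 8.7, 8.24 and 15.6 CPM with saline and 48.4, 62.2, 66.8, 74.6 and 34.8 CPM with TAA, a rise of 2.17 ± 0.35 (adjusted p = 0.00396). It was the 1 gene of 10 in the B and plasma cell list that passed, where 0.124% of all genes rose. The summed level of that list was 19.1 to 44.4 CPM with saline and 56.7 to 91.1 CPM with TAA. Ighm itself made up most of that sum in every TAA liver, and the rest of the sum overlapped between the groups. H2-Q7 (chr17:35439155-35443773), a nonclassical class I histocompatibility gene with close relatives beside it, stood at 29.9, 37.2, 55.4 and 29.6 CPM with saline and 13, 6.63, 11.3, 15.8 and 12.5 CPM with TAA, a fall of 1.69 ± 0.25 log2 units (adjusted p = 0.00153). Neither gene's groups overlapped, and without saline replicate 1 the changes were 2.38 for Ighm (adjusted p = 0.0029) and -1.79 for H2-Q7 (adjusted p = 0.00107).

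Saa4, the constitutive serum amyloid A of lipoproteins, stood at 281, 147, 216 and 238 CPM with saline and 91.1, 73.8, 136, 128 and 86.7 CPM with TAA, a fall of 1.10 ± 0.23 log2 units (adjusted p = 0.0314) that missed the threshold without saline replicate 1 (-0.97, adjusted p = 0.0632). The inducible Saa1 stood at 1216, 342, 776 and 697 CPM with saline and at 179, 113, 117, 130 and 131 CPM with TAA. The groups did not overlap, and the change of -2.50 ± 0.56 did not pass the test (adjusted p = 0.0609, and 0.0867 without saline replicate 1). Of 28 acute phase genes Saa4 was the 1 that passed in edgeR, where 0.0516% of all genes fell, while DESeq2 gave 3 that fell and limma-voom 1. Of the 28, 3 had a change above 0 (median -0.42). At an unadjusted p under 0.05, 11 were lower and none higher, beside 870 and 807 of all 19381 genes. Without saline replicate 1 the median was -0.52 and none passed in edgeR. There 1 was higher and 15 were lower at an unadjusted p under 0.05, beside 1085 and 1172 of all genes. Of 43 interferon-stimulated genes none passed in edgeR, 7 had a change above 0, and the median was -0.27 (-0.39 without saline replicate 1). At an unadjusted p under 0.05, 10 of these were lower and none higher (870 and 807 of all 19381 genes), and neither DESeq2 nor limma-voom called any. Without saline replicate 1 DESeq2 gave 3 that fell, and edgeR and limma-voom none.

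Mup11, a major urinary protein whose many near copies make its count uncertain, ranged from 103 to 24496 CPM among the saline livers and from 63.1 to 806 CPM among the TAA livers. Saline replicate 3 lay inside the TAA range and saline replicate 1 far above the rest. The fall of 4.97 ± 0.92 log2 units (adjusted p = 0.0126) was -3.25 without saline replicate 1 (adjusted p = 0.0502). Susd4, a regulator of complement, stood at 23.7, 5.92, 2.27 and 4.88 CPM with saline and at 0, 0.947, 0, 0.688 and 0.251 CPM with TAA, with no overlap, and fell by 4.40 ± 0.74 log2 units (adjusted p = 0.00741), with a change of -3.40 without saline replicate 1 (adjusted p = 0.0164). Crybb3, a beta-crystallin, and Vnn3, of the vanin family, were highest in saline replicate 3 (28.4 and 213 CPM) and overlapped between the groups, and they fell by 2.95 ± 0.58 and 1.53 ± 0.33 log2 units (adjusted p = 0.0195 and 0.0417). Their changes without saline replicate 1 were -3.30 and -1.83 (adjusted p = 0.00247 for each).

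Among the remaining called genes, Bglap3, an osteocalcin-related gene, stood at 0.44, 1.39, 0.852 and 16.6 CPM with saline and at 37.7, 60, 11.3, 52.9 and 21.1 CPM with TAA. Saline replicate 4 lay inside the TAA range, so the rise of 2.87 ± 0.56 (adjusted p = 0.019) was the 1 rise with overlapping groups, and it was 2.53 without saline replicate 1 (adjusted p = 0.0341). Lmo1, a LIM-domain transcriptional regulator, had 1 count in the saline livers and 51 in the TAA livers, a ratio of rates of 36.8 with a 95% counting interval of 6.32 to 1483. In edgeR it rose by 4.61 ± 0.94 (adjusted p = 0.0241), or by 4.39 without saline replicate 1 (adjusted p = 0.0442). The other genes that rose were Adam32 (2.09), Gipc2 (1.92), Lrrc51 (1.87), Atp2b2 (1.72), 9030619P08Rik (1.47), Tulp3 (1.44) and Fam25c (1.42), given as log2 fold changes, with levels of 0.879 to 241 CPM with saline and 6.31 to 754 CPM with TAA. Their adjusted p in edgeR ran from 0.00741 to 0.044. Without saline replicate 1 the changes were 1.98, 1.57, 1.90, 1.70, 1.39, 1.46 and 1.40 in the same order (adjusted p from 0.0099 to 0.051). The short genes Gm22748 and Gm25588 fell by 2.35 and 1.80 log2 units (edgeR, adjusted p = 0.0158 and 0.019) and were highest in saline replicate 1 (104 and 44.4 CPM). Without that liver their changes were -1.63 and -1.43 (adjusted p = 0.0636 and 0.059). Mup11, Gm22748, Gm25588, Saa4 and Atp2b2 were the 5 genes not called without saline replicate 1.

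Leaving out saline replicate 1 called 43 further genes, 16 that rose and 27 that fell. Saline replicate 1 was the highest of the 4 saline livers in all 16 that rose and the lowest in 26 of the 27 that fell, and it lay below every TAA liver in 15 of the 27. The remaining saline livers were below every TAA liver in 15 of the 16 and above every TAA liver in 20 of the 27. These genes were picked by leaving out saline replicate 1, so the counts above follow in large part from the choice. They are given as a description and not as a result about the genes. Saline replicate 3, with most human NRAS, was the lowest of the 4 in 14 of the 16 and the highest in 22 of the 27. The share of all genes with that order was not computed. Saline replicates 1 and 3 were also the lowest and the highest of the group in human NRAS. With human NRAS as a covariate, an alternative added after the data were seen, 22 genes were called without saline replicate 1, 8 higher and 14 lower.

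The genes that rose in that comparison included enzymes of amino acid breakdown and the urea cycle. Sds, serine dehydratase, stood at 132, 76.2, 12.8 and 59.6 CPM in saline replicates 1 to 4 and at 163, 159, 320, 264 and 155 CPM in TAA replicates 1 to 5. Ass1, argininosuccinate synthase of the urea cycle, stood at 471, 248, 121 and 255 CPM with saline and 413, 386, 566, 574 and 448 CPM with TAA. Gnmt, glycine N-methyltransferase, stood at 1760, 546, 173 and 325 CPM with saline and 923, 773, 1601, 1992 and 1118 CPM with TAA. Sds did not overlap between the groups in any liver, whereas Ass1 and Gnmt did not overlap once saline replicate 1 was left out. Their changes without it were 2.10 ± 0.37, 1.19 ± 0.22 and 1.87 ± 0.35 (adjusted p = 0.00678, 0.0081 and 0.0099), and with it 1.61, 0.80 and 0.87 (adjusted p = 0.0677, 0.239 and 0.57).

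Of 44 genes of amino acid breakdown and the urea cycle, 9 rose and none fell without saline replicate 1, and 43 of the 44 had a change above 0, with a median of 0.61 against -0.02 over all genes. Of all genes 0.253% rose, 0.175% fell and 47.6% had a change above 0 there. With all 9 livers 2 rose, 37 were above 0, and the median was 0.35, where 0.124% of all genes rose and 47.3% were above 0. Beside Cth, Got1, Sds, Ass1 and Gnmt, these 9 were Hal (histidine ammonia-lyase, 1.86), Agxt (the aminotransferase that clears glyoxylate, 1.28), Asl (argininosuccinate lyase, 1.33) and Arg1 (arginase, 0.86), which passed on adjusted p alone (0.0187). Of 18 periportal genes 6 rose without saline replicate 1 and none with all 9 livers in edgeR, where 10 were higher at an unadjusted p under 0.05 and DESeq2 and limma-voom each called 1. The medians were 0.82 and 0.74, and the 6 were Sds, Hal, Ass1, Asl, Arg1 and Etnppl (phosphoethanolamine lyase, 1.98). Cyp2f2, of the same list, did not pass in edgeR, with changes of 0.52 without saline replicate 1 (adjusted p = 0.605) and -0.13 with it (adjusted p = 0.969). The summed level of the 18 was 10922, 11960, 7460 and 9250 CPM with saline and 14322, 17254, 16016, 14839 and 14961 CPM with TAA, so that every TAA liver lay above every saline liver, replicate 1 included. Arg1, the most abundant of the 6, stood at 554, 344, 251 and 354 CPM with saline and 526, 514, 621, 683 and 550 CPM with TAA. Most of each sum therefore came from other members, and the sum is not a measure of the 6. Hamp2, a hepcidin gene whose close copy Hamp makes its count uncertain, stood at 9.67, 2.09, 0.568 and 2.6 CPM with saline and 10.7, 12, 94.7, 40.2 and 44.4 CPM with TAA, and rose by 4.53 ± 0.98 without saline replicate 1 (adjusted p = 0.0294).

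The genes that fell once saline replicate 1 was left out included neutrophil chemokines. Cxcl1, a ligand of the neutrophil receptor Cxcr2, stood at 7.03, 30.6, 116 and 57.9 CPM with saline and 19.4, 18.3, 13.8, 8.25 and 27.6 CPM with TAA, and fell by 1.97 ± 0.41 (adjusted p = 0.0222). Replicates 2 to 4 of the saline group were above every TAA liver in Cxcl1, and replicate 1 was below every TAA liver. Cxcl5 and Cxcl3, of the same chemokine group, fell by 3.46 and 3.31 log2 units from levels of at most 34.8 CPM. They were the other members, with Cxcl1, of the 3 of 33 NF-kB response genes that fell, where 0.175% of all genes fell. With all 9 livers none of the 33 passed in edgeR, 6 had a change above 0 and the median was -0.62. At an unadjusted p under 0.05, 11 were lower, and DESeq2 and limma-voom called none.

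Bmp4, Nrg1 and Mpeg1 fell as well in that comparison. Nrg1, a ligand of ErbB receptors, stood at 1.32, 16.4, 21.3 and 20.8 CPM with saline and 11, 8.2, 2.51, 2.75 and 9.52 CPM with TAA, and fell by 1.51 ± 0.33 log2 units (adjusted p = 0.0346). Mpeg1, the macrophage pore-forming protein perforin-2, stood at 40, 86.3, 110 and 107 CPM with saline and 54.4, 62.8, 39.2, 31.6 and 60.9 CPM with TAA, and fell by 1.03 ± 0.19 (adjusted p = 0.00849). The change of Bmp4, a bone morphogenetic protein, was -2.14 ± 0.39 (adjusted p = 0.00741), and that of Mpdz, a tight junction scaffold, was -2.11 ± 0.38 (adjusted p = 0.00723). Mouse Akt1 stood at 15.8, 33.8, 63.1 and 43 CPM with saline and 29, 19.6, 13.8, 18.6 and 24.1 CPM with TAA, and fell by 1.16 ± 0.21 without saline replicate 1 (adjusted p = 0.00678), whereas with all 9 livers its change was -0.90 ± 0.24 (adjusted p = 0.163). Whether reads of the AKT plasmid fall on mouse Akt1 was not tested.

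**Figure D2:**
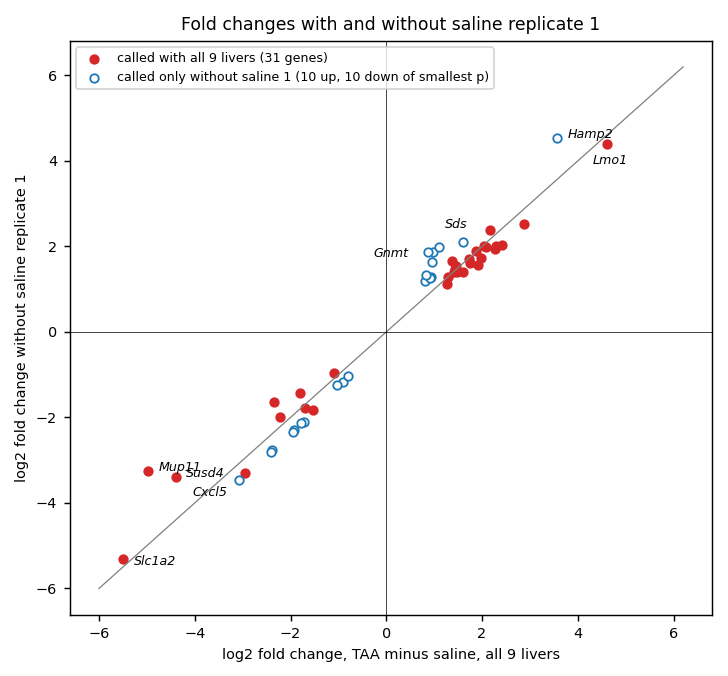
Log2 fold change of TAA over saline with all 9 livers (horizontal axis) and without saline replicate 1 (vertical axis), for the 31 genes called with all livers and for 10 genes in each direction of smallest p among those called only without it. The 31 genes lie near the diagonal, with Mup11 moving from -4.97 to -3.25, and the added genes lie farther from 0 without saline replicate 1, such as Sds at 1.61 and 2.10. The added genes were picked by that omission, which favors such a shift.

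Genes of duct cells, macrophages and tumors ranged widely among the livers of each group. The summed level of 19 bile duct and ductular genes was 170, 2706, 9177 and 1030 CPM in saline replicates 1 to 4 and 1399, 1671, 386, 262 and 4978 CPM in TAA replicates 1 to 5. Genes of scar-associated and monocyte-derived macrophages, 19 in all, summed to 1221, 4118, 10866 and 2283 CPM with saline and 3478, 3655, 1800, 1633 and 6914 CPM with TAA. In both lists saline replicate 1 was lowest and saline replicate 3 highest of its group, TAA replicate 4 was lowest and TAA replicate 5 highest of its group, and the groups overlapped. Human NRAS had its lowest and highest values in the same 4 livers.

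No bile duct gene or macrophage gene of these lists passed the edgeR test between the groups, with medians of -0.46 and 0.04, and -0.82 and -0.12 without saline replicate 1. At an unadjusted p under 0.05, 1 duct gene was higher and 1 lower, 2 macrophage genes were higher and 1 lower, and DESeq2 and limma-voom called none of them. In edgeR with human NRAS as a covariate, 1 duct gene and 3 macrophage genes rose and none fell. The medians of the duct and macrophage lists were 0.73 and 0.42 in that fit. Sox9, a transcription factor of duct cells and progenitors, stood at 48.4, 56.4, 167 and 42 CPM with saline and 40.4, 33.1, 27.3, 18.9 and 65.4 CPM with TAA, a change of -1.08 ± 0.41 (adjusted p = 0.439), or -1.26 without saline replicate 1 (adjusted p = 0.193). Afp, the fetal liver protein and tumor marker, stood at 3.96, 112, 422 and 140 CPM with saline and 72.8, 78.3, 35.1, 27.2 and 167 CPM with TAA (-1.15 ± 0.56, adjusted p = 0.575), and its change without saline replicate 1 was -1.56 (adjusted p = 0.0983). Of 20 fetal liver and liver cancer genes none passed in edgeR, DESeq2 or limma-voom with all 9 livers (3 higher and 2 lower at an unadjusted p under 0.05), and Bex1 fell without saline replicate 1 (-3.06 ± 0.63, adjusted p = 0.0254). The median of the 20 was -0.49 with all 9 livers. It was 0.57 with the covariate, where 2 rose and none fell in edgeR.

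No matrix gene passed the test in edgeR, DESeq2 or limma-voom with all 9 livers. Of 48 extracellular matrix and stellate cell genes 7 had a change above 0, the median was -0.46, and 1 was higher and 6 were lower at an unadjusted p under 0.05. The direction of this list depended on the model. With human NRAS as a covariate, added after the data were seen, 34 of the 48 were above 0 and the median was 0.17. Col1a1, the main chain of fibrillar collagen I, stood at 3.52, 70.6, 141 and 33.8 CPM with saline and 42.1, 33.1, 12.9, 8.94 and 48.6 CPM with TAA (-1.10 ± 0.53, adjusted p = 0.573), and its change without saline replicate 1 was -1.49 (adjusted p = 0.131). Without saline replicate 1, Col4a2, a basement membrane collagen, fell by 1.11 ± 0.26 log2 units (adjusted p = 0.0442) and the median of the list was -0.61. In that comparison 23 of the 48 were lower and 1 was higher at an unadjusted p under 0.05 in edgeR. DESeq2 gave 1 and limma-voom 3 that fell, and neither gave any that rose. In SB livers 7 of the 48 rose with TAA and 1 fell, beside 3.48% and 2.51% of all genes, with a median of 1.05. The livers with the highest duct sums, saline replicate 3 and TAA replicate 5, also had the highest matrix sums of their groups (3104 and 2313 CPM).

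Genes of dividing cells were measured in both groups. The 38 mitosis genes summed to 72.1, 299, 372 and 359 CPM with saline and 380, 327, 190, 181 and 326 CPM with TAA, and with all 9 livers none passed in edgeR, DESeq2 or limma-voom or had an unadjusted p under 0.05 (median -0.00). Without saline replicate 1 the median was -0.28, none passed with the 3 tools, and 1 was lower at an unadjusted p under 0.05. Mki67, a marker of cycling cells, stood at 1.32, 15.7, 20.2 and 29.9 CPM with saline and 17, 11.4, 7.21, 7.56 and 15.8 CPM with TAA, a change of -0.53 ± 0.42 (adjusted p = 0.784), or -0.90 without saline replicate 1 (adjusted p = 0.254). SB livers summed to 26.1 to 42 CPM for the 38 genes with saline and 179 to 412 CPM with TAA. For 36 DNA replication genes the median with all 9 livers was -0.03, and none passed with any of the 3 tools or had an unadjusted p under 0.05. The median was -0.15 without saline replicate 1, none passed with the 3 tools, and 1 was lower at an unadjusted p under 0.05. Adding human NRAS as a covariate gave medians of 0.49 for the mitosis genes and 0.23 for the replication genes. In that fit 34 of the 38 and 26 of the 36 were above 0, and none passed in edgeR.

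Of p53 target genes 1 passed the test. The 32 genes tested summed to 1482, 1769, 1706 and 1721 CPM with saline and 2092, 2159, 2109, 2220 and 2031 CPM with TAA, so the sums did not overlap, and the median change was 0.13, with 22 of the 32 above 0. The median was -0.01 without saline replicate 1, 14 were above 0, and none passed in edgeR (4 higher and 1 lower at an unadjusted p under 0.05), while DESeq2 gave 2 and limma-voom 1 that rose. Trp53inp1, a p53-induced nuclear protein, was the 1 gene that passed on adjusted p (0.93 ± 0.18, adjusted p = 0.019), and it missed the threshold without saline replicate 1 (0.80, adjusted p = 0.0502). Cdkn1a, the cell cycle inhibitor p21, had an adjusted p of 0.875. The 1 of 32 stands beside 0.124% of all genes that rose here. In SB livers, where 3.48% of all genes rose and 2.51% fell, 17 of the 32 rose with TAA and 1 fell, with a median of 0.90.

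**Figure D3:**
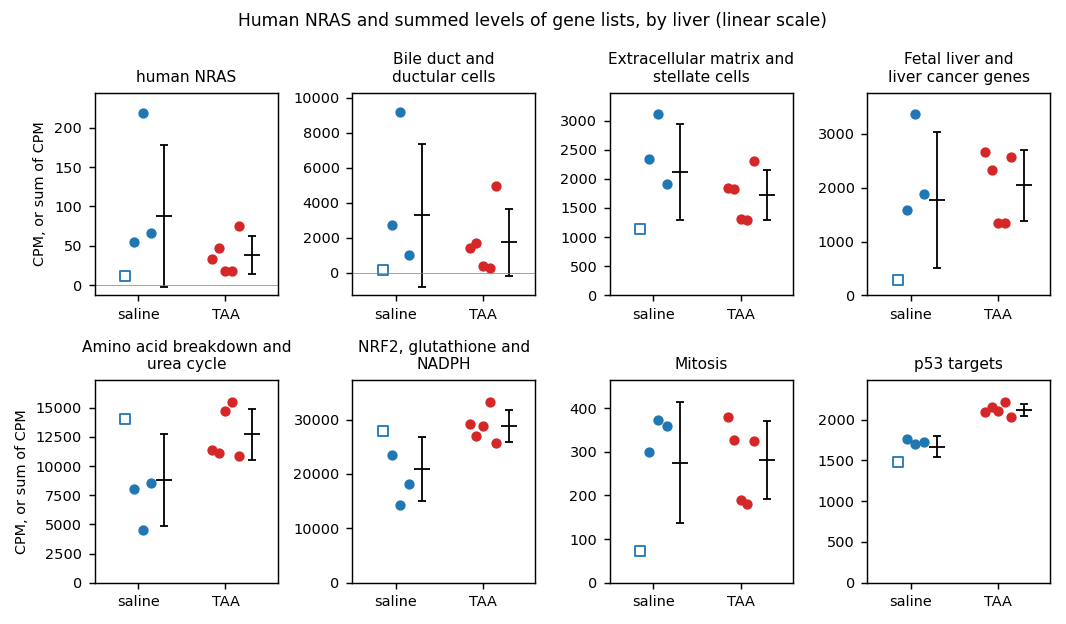
Human NRAS in CPM and the summed CPM of 7 gene lists in each of the 9 livers, with saline replicates 1 to 4 and TAA replicates 1 to 5 from left to right. The duct sum is highest in saline replicate 3 (9177 CPM) and TAA replicate 5 (4978 CPM), which also hold most human NRAS of their groups, and the p53 sums of the TAA livers all lie above those of the saline livers.

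The response was then set beside that of livers without oncogenes, which share no animal with it. TAA called 809 genes in SB livers, 529 higher and 280 lower, against 31 here. Of the 21 genes that rose here 19 had the same sign in SB livers and 8 of those passed the adjusted p there (3.48% of all genes rose), and of the 10 that fell all 10 had the same sign and 7 passed (2.51% fell). Of all genes 55.6% had a change above 0 in SB livers. In SB livers Slc1a2 fell by 7.10 log2 units and Glul fell by 3.67, and Gm3776 and Cyp2a4 rose by 4.84 and 2.79. The difference between the settings was tested for each gene. By adjusted p and a difference over 1 log2 unit, 145 genes (0.748%) differed, 113 with a lower TAA effect here and 32 with a higher effect. At an unadjusted p under 0.05 there were 2892 genes, 1790 with a lower effect here and 1102 with a higher effect. That count was 855 without saline replicate 1, 48 without SB + saline replicate 1 and 448 without SB + TAA replicate 2.

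Of the 31 genes, Nt5e and Cth had a TAA effect that differed from that in SB livers. Nt5e averaged 3.59 ± 2.06 CPM (SD, n = 4) in SB + saline and 2.67 ± 0.908 CPM (SD, n = 4) in SB + TAA livers, a change of -0.49 against 2.30 here, and the difference was 2.79 ± 0.69 log2 units (adjusted p = 0.0473). Cth averaged 277 ± 15 CPM (SD, n = 4) in SB + saline and 217 ± 65.3 CPM (SD, n = 4) in SB + TAA livers, a change of -0.35 against 1.37 here, with a difference of 1.72 ± 0.39 (adjusted p = 0.03). Every saline liver with oncogenes had less Cth than any SB + saline liver (65.1 to 204 against 263 to 298 CPM), and the TAA livers of both settings overlapped. The effects on Slc1a2 and Glul did not pass the test of difference (adjusted p = 0.436 and 0.081).

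Some genes of division, macrophages and fetal liver had a lower TAA effect here than in SB livers. On adjusted p alone, 15 of 38 mitosis genes and 7 of 36 DNA replication genes had a lower TAA effect here and none a higher, against 0.583% of all genes lower and 0.175% higher. DESeq2 gave 26 mitosis genes and 9 replication genes with a lower effect, and limma-voom 5 and 1. Mki67 rose in SB livers by 3.20 ± 0.63, from 0.568 to 2.41 CPM with saline to 7.65 to 20 CPM with TAA, and the difference of the effects was -3.73 ± 0.76 (adjusted p = 0.0162). Afp rose there by 4.22 ± 0.92, from 0.802 to 3 CPM to 19.7 to 55.2 CPM, with a difference of -5.37 ± 1.08 (adjusted p = 0.0159). Gpnmb, a marker of scar-associated macrophages, rose there by 5.12 ± 0.84, with a difference of -4.66 ± 1.09 (adjusted p = 0.0371), and 4 of 19 macrophage genes and 4 of 20 fetal liver genes had a lower effect here in edgeR. For these lists DESeq2 gave 8 and 6 with a lower effect, and limma-voom 1 and 0. None of the 48 matrix genes passed this test in edgeR or limma-voom, DESeq2 gave 3 with a lower effect, and 23 were lower and 1 higher at an unadjusted p under 0.05. Of these 48, 44 had a change above 0 in SB livers and 7 here. The list counts and gene differences above use all livers, and their values without saline replicate 1 are not given. They may move, because without that liver 855 genes differed in place of 145 (346 with a higher effect here and 509 with a lower effect).

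Library composition moved with that contrast: 12 skeletal muscle genes summed to 8.68 to 15.3 CPM in the 9 oncogene livers and to 10.3 to 9127 CPM in the SB + TAA livers, all 12 rose with TAA in SB livers, and their part in the differences was not tested. Scaling by library size alone gave 470 genes with a different effect, 22 higher and 448 lower here, in place of 32 and 113.

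In the other oncogene model, livers with AKT and c-Met, TAA called 38 genes, 21 higher and 17 lower. Of the 21 genes that rose here 19 had the same sign there and 7 passed the adjusted p (0.134% of all genes rose), and of the 10 that fell 9 had the same sign and 4 passed (0.103% fell). Of all genes 51.5% had a change above 0 there. In those livers Slc1a2 fell by 6.13 log2 units and Glul fell by 2.44, and Maoa, Nt5e, Abcc4 and Bglap3 rose by 2.60, 2.15, 2.99 and 5.78. The difference between the oncogene settings was called for 3 genes (0.0155%), while 1108 had an unadjusted p under 0.05, and the count was 21 without saline replicate 1. The 3, which were named after their values were seen, were Ighm and Cidea with a higher effect here and Gpc3 with a lower effect. Ighm had a change of -0.61 in the c-Met livers against 2.17 here, a difference of 2.79 log2 units (adjusted p = 0.0484).

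**Figure D4:**
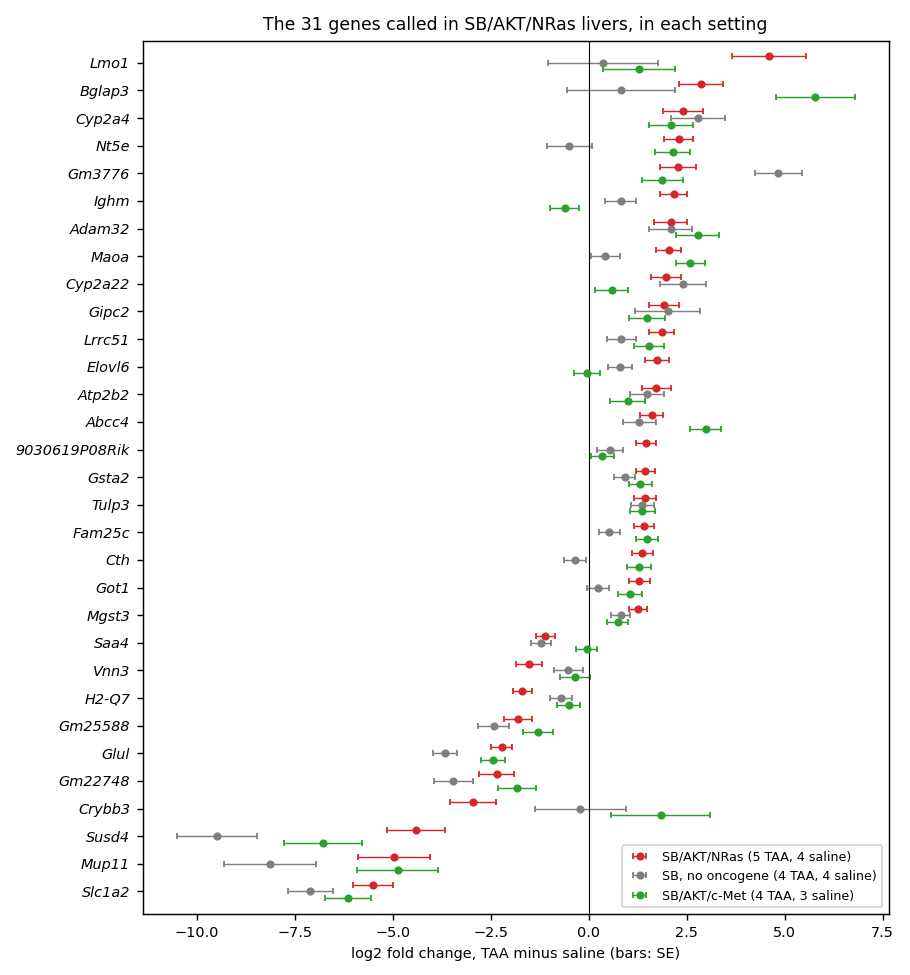
Log2 fold change of TAA over saline, with SE bars, of the 31 called genes in livers with AKT and NRas, in SB livers and in livers with AKT and c-Met. Slc1a2 lies below -5 in all 3 settings, Nt5e is at 2.30, -0.49 and 2.15, and Ighm at 2.17, 0.82 and -0.61; the genes were chosen from the first setting.

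The 43 genes called only without saline replicate 1 were set beside both other models in the same way. Of the 16 that rose 6 had the same sign in SB livers and 2 passed there, and all 16 had the same sign in the c-Met livers and 1 passed. Of the 27 that fell 6 had the same sign in SB livers and 10 in the c-Met livers, and none passed the edgeR test in either. Over all genes 55.6% had a change above 0 in SB livers, 3.48% rose and 2.51% fell. In the c-Met livers these shares were 51.5%, 0.134% and 0.103%. The effect of TAA on 5 of the 43 differed from that in SB livers on adjusted p, among them Nrg1, which rose in SB livers by 2.87 (difference -4.02 ± 0.85, adjusted p = 0.0215), and Mpeg1 (difference -1.37 ± 0.34, adjusted p = 0.0473).

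With all 9 livers and human NRAS as a covariate, also added after the data were seen, 103 genes were called, 62 higher and 41 lower, among them 29 of the 31, and Crybb3 and Vnn3 were no longer called (adjusted p = 0.109 and 0.105). Slc1a2 and Glul kept changes of -5.68 and -2.34 and Nt5e rose by 2.99. The medians of the acute phase, NF-kB response and interferon-stimulated lists were -0.11, -0.20 and -0.23 there (-0.42, -0.62 and -0.27 without the covariate). Without saline replicates 1 and 3, the livers with least and most human NRAS, 15 genes were called, 7 of them among the 31. Putting the fold threshold into the test (glmTreat) left 1 called gene, which was lower with TAA. Over the 20 other settings, which do not include glmTreat, 5 of the 31 genes passed the adjusted p in every one: Slc1a2 (-6.12 to -5.17), Glul (-2.52 to -2.00), H2-Q7 (-1.82 to -1.44), Nt5e (2.00 to 2.99) and Ighm (1.94 to 2.38).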

How the data were processed

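RNA was extracted with RNAzol from whole liver, reverse transcribed from the poly-A tail with an index and a unique molecular identifier (UMI), and sequenced on a NextSeq 550. The authors separated the libraries (Sabre), aligned to GRCm38 plus the human NRAS and MET transcripts (STAR), removed duplicate UMIs within RNAsik and counted with featureCounts 1.6.4 (strand setting 1, mapping quality of at least 10). The deposited unit is counts per gene, not normalized, for 53467 genes, of which 24624 had a count in the 9 livers. A second deposited table held the same counts (1283208 of 1283208 cells identical), and no 2 libraries were identical.

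The filter kept the 19381 genes that reached 0.5 CPM in 2 or more of the 24 libraries. Differences were tested with edgeR 4.0.16 (R 4.3.3; TMM scaling, 1 model of 6 group means, quasi-likelihood test, Benjamini-Hochberg adjustment over all genes kept), in which all groups share the estimate of spread. Called means an adjusted p under 0.05 and an absolute log2 fold change over 1. CPM levels use TMM-scaled library sizes, and ± after a log2 value is an SE. The fit without saline replicate 1 used 23 libraries and the same genes. The labels do not say whether mice came from separate cages or days, so p-values measure only the spread between these livers. On simulated counts for 19381 genes, 66% of genes changed 2-fold and 97% changed 4-fold were recovered, with 4 false calls. Recovery and false calls there mean an adjusted p under 0.05 alone. The share that would also pass the fold threshold, and so be called, was not computed. The genes changed had a mean of at least 5 CPM, and the counts of each gene were drawn independently. Recovery at lower levels, or with shifts shared by many genes of a liver, was therefore not measured. Counting intervals cover counting error only.

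The members and lists were chosen with earlier results of these data known. Genes were named if called, if among the 10 of smallest p in each direction called only without saline replicate 1, if they led a list by p or by its order as written, or if they checked the transgenes; 1 of these is not reported here. Lists are described by counts and medians, without a set test. limma 3.58.1, DESeq2 1.42.0 and the alternatives in the closing part were also run. Python 3.11.15, pandas 2.3.3 and matplotlib 3.10.9 were used for the summaries and plots.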

Additional observations from a re-analysis of the deposited data

Results flagged for a closer look

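In groups of 4 or 5 livers, 12 of 160 groups of values (7.5%) had a highest or lowest liver beyond Dixon's 95% value, where chance gives about 1 in 20. Among the saline livers these were Susd4 in replicate 1 (23.7 CPM), Abcc4 in replicate 1 (5.28 CPM), Cyp1a1 in replicate 1 (0.879 CPM, the others at 0), Bex1 in replicate 3 (15.1 CPM), Sox9 in replicate 3 (167 CPM), Bglap3 in replicate 4 (16.6 CPM) and Lmo1 in replicate 4 (0.325 CPM, the others at 0). Among the TAA livers they were Slc1a2 in replicate 5 (3.01 CPM), Cxcl3 in replicate 5 (4.26 CPM), Mup11 in replicate 4 (806 CPM), Tulp3 in replicate 4 (51.9 CPM) and Saa1 in replicate 1 (179 CPM).

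The TAA effect differed from that in SB livers, by the test of the difference in edgeR, for Nt5e (2.79 log2 units higher here), Cth (1.72 higher), Mpeg1 (-1.37), Nrg1 (-4.02), Mki67 (-3.73), Afp (-5.37) and Gpnmb (-4.66). For Ighm it differed from that in livers with AKT and c-Met (2.79 higher here). These differences use all livers, and their values without saline replicate 1 are not given.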

How the results depend on the processing

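The count of 31 called genes was 190 with no filter on low counts, 57 in DESeq2, 18 with robust estimation, 1 when the fold of 2 was put into the test (glmTreat) and 26 with a replicate block. It ranged from 19 to 69 when 1 liver was left out (69 without saline replicate 1, 19 without TAA replicate 1, 20 without TAA replicate 2). In alternatives added after the data were seen it was 103 with human NRAS as a covariate and 15 without saline replicates 1 and 3. The 69 genes without saline replicate 1 became 307 with no filter, 112 in limma-voom, 1 in glmTreat, 135 (59 higher, 76 lower) with a replicate block, 22 with the covariate, and 33 to 160 when a TAA liver was also left out (33 without replicate 3, 34 without replicate 4, 160 without replicate 5). Scaling by library size alone called 55 genes in that comparison, 20 higher and 35 lower, with a median over all genes of -0.15.

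The 145 differences from SB livers became 470 with library size alone, 794 with no filter, 83 in limma-voom (43 higher, 40 lower), 298 in DESeq2, 93 with robust estimation, 10 in glmTreat, 82 with only the 4 groups, 155 with a replicate block, 327 without saline replicates 1 and 3, and 48 to 855 with 1 liver left out; 13 of those 17 omissions moved the count by over 1.5 times. The 3 differences from c-Met livers became 90 with no filter, 9 in DESeq2, 1 in limma-voom, 11 without saline replicates 1 and 3, 0 with library size alone, filterByExpr, robust estimation, glmTreat or only the 4 groups (1108 at an unadjusted p in edgeR), and 0 to 21 with 1 liver left out. Human NRAS changed by -1.19 with no filter (adjusted p = 8.59e-04) and by -1.59 to -0.21 with 1 liver left out. The cause of these shifts was not tested.

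Of 1579 fold changes of 79 genes under 20 settings (glmTreat not among them), 1333 kept direction and side of the threshold, 159 lost significance and 83 gained it. The 4 that turned direction were Gclc (-0.09, without saline replicates 1 and 3), and Mki67 (0.06), Col1a1 (0.15) and Afp (0.51) with the covariate, and none of these 4 genes had passed the test. Replicate numbers did not pair the livers: deviations of equal-numbered saline and TAA livers correlated at -0.294 to 0.0213, and 0 of 4 saline livers was closest to its own number. Depth limits genes of a few counts, such as Lmo1.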
